A study of Mus musculus with 6 samples.

Results

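The DNAM-1, TIGIT and CD96 axis was examined as 5 genes chosen by symbol from a table of 24628 genes: the receptor genes Cd226, Tigit, Cd96 and Crtam and the ligand gene Pvr. RNA-seq was done on mouse cells labelled lymphocyte, which the series' design text calls ILC1s. These innate lymphocytes are close relatives of natural killer (NK) cells and secrete interferon-γ. Libraries titled treatment (n = 3) were taken as conditional knockouts (cKO) of Rora, the gene of the nuclear receptor RORα, because the series text names wild-type and cKO cells only. Columns that add the name Ncr1, the NKp46 gene, to Rora were matched to these titles by elimination and replicate number, as no label names Ncr1 or cKO for them. The other libraries (n = 3) are titled Rorafl/fl and are called floxed here. Floxed Rora alleles are in that title, and the sources used here do not state the Cre allele in words, the age or sex of the mice, the sorting gate or pooling. Nor do they tie the replicates to separate animals. The p-values therefore cover the spread between these libraries, which may be technical.

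The receptors of this axis sit on NK cells, ILC1s and T cells and bind ligands on the surface of other cells. DNAM-1, the product of Cd226, gives an activating signal when it binds PVR (CD155) or nectin-2, and it cooperates with the integrin LFA-1. TIGIT and CD96 bind PVR as well; TIGIT carries inhibitory motifs in its tail, and CD96 has been described as inhibitory on mouse NK cells. CRTAM is an activating receptor for the adhesion protein CADM1. These receptors and their ligands PVR, nectin-2 and CADM1 are immunoglobulin superfamily proteins, and DNAM-1, TIGIT and CD96 compete for PVR.

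Reads assigned to genes came to 21111333 to 22440170 in cKO and 20152146 to 21711523 in floxed libraries. Rora RNA itself was at 5.69, 6.29 and 6.24 RPKM (reads per unit of gene length and of sequencing depth) in the cKO libraries, against 6.92, 7.41 and 7.91 RPKM in the floxed libraries. The groups did not overlap, but limma's Benjamini-Hochberg adjusted p was 0.242, and the part of Rora that is deleted is not given, so whole-gene RPKM does not check the deletion. Of 10 genes shared by ILC1s and NK cells all were tested, 0 rose and 1, Ncr1, fell. Their summed level was 1371 to 1394 RPKM in cKO and 1489 to 1507 RPKM in floxed libraries. That sum includes Ncr1, which alone averaged 246 RPKM in cKO and 372 RPKM in floxed libraries. The unadjusted p was under 0.05 for 1 higher and 2 lower genes, and voom, a count model on recovered reads, passed 0 as higher and 1 as lower. Over all 12731 tested genes, 1.32% passed in limma, 14.1% had an unadjusted p under 0.05 and 4.19% passed by voom. The cKO libraries also stood apart in genes outside the axis. Of 26 tested immediate-early and stress genes, 19 rose and 0 fell in limma (unadjusted p under 0.05 for 22 higher and 2 lower; 22 and 1 by voom), with a summed level of 4254 to 4328 RPKM in cKO and 2739 to 2744 RPKM in floxed libraries. Xist, expressed from the inactive X chromosome, averaged 9.43 ± 0.394 RPKM in cKO and 31.9 ± 3.16 RPKM in floxed libraries, and the Y-linked Ddx3y 20.8 ± 0.438 and 10.4 ± 0.498 RPKM (SD, n = 3 each). Both Xist and Ddx3y were detected in every library. All these differences ran with the groups, so they cannot be told apart from the genotype here. Their part in the results on the axis was not tested.

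All 5 axis genes were expressed at 1 RPKM or more in every library and entered the test. In limma Cd226 fell, 0 rose and the other 4 did not pass, a call in 1 of 5 genes where 1.32% of 12731 tested genes passed, 0.668% as lower and 0.652% as higher. Tigit and Crtam lay above the floxed libraries in all 3 cKO libraries and Cd226 below them, so groups were apart in 3 of 5 genes, against 20.3% of all tested genes (12.7% as lower and 7.61% as higher). The unadjusted p was under 0.05 for Cd226, Tigit and Crtam, and for 14.1% of all tested genes. On recovered reads, voom passed 1 as lower and 2 as higher, namely Cd226, Tigit and Crtam, where 4.19% of tested genes passed.

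**Figure D1:**
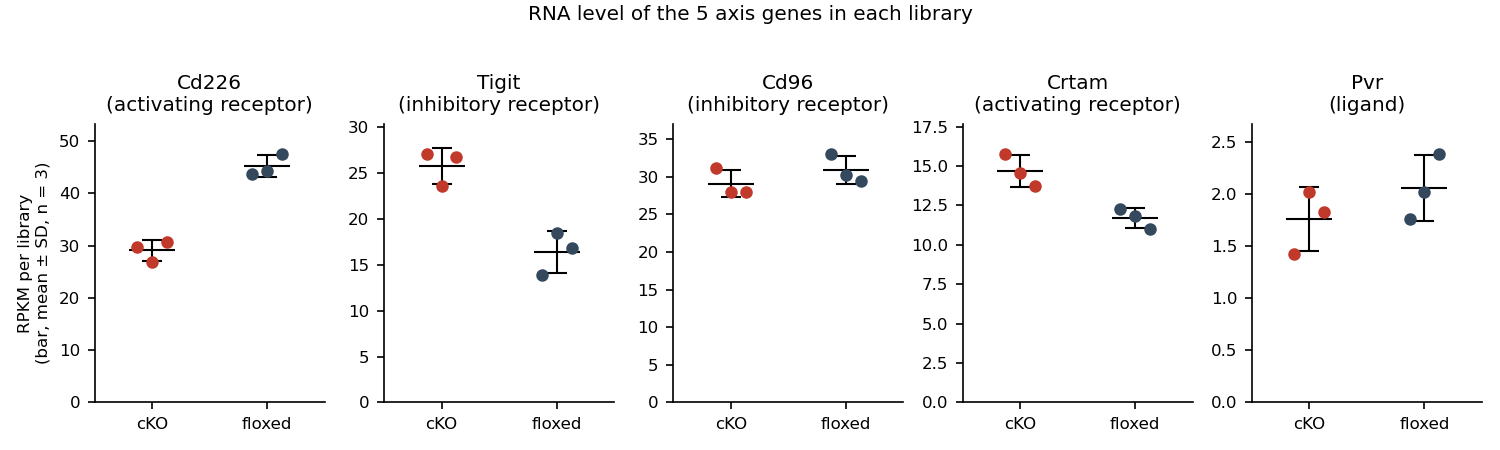
RPKM of each axis gene in every library (points), with the group mean and SD (bar, n = 3), cKO on the left and floxed on the right; each panel has its own axis from 0. Cd226 was at 26.9 to 30.7 RPKM in cKO and 43.7 to 47.6 RPKM in floxed libraries, while Tigit was at 23.6 to 27.1 and 13.9 to 18.5 RPKM and Cd96 overlapped between the groups.

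Cd226 fell in the cKO libraries. This gene encodes DNAM-1 and lies on chromosome 18 at 89197431 to 89270201, plus strand, in mm10, with 7 merged exons and 2357 exon bases. Its level was 29.8, 26.9 and 30.7 RPKM in the cKO libraries, against 43.7, 44.3 and 47.6 RPKM in the floxed libraries. Every cKO value lay below every floxed value, with 13.1 RPKM between the highest cKO and the lowest floxed library. Means were 29.1 ± 1.97 RPKM in cKO and 45.2 ± 2.10 RPKM in floxed libraries (SD, n = 3 each), so the cKO level was 64.4% of the floxed level. The log2 difference, taken as cKO minus floxed after adding 1 RPKM, was -0.62 (SE 0.07, with a 95% confidence interval of -0.78 to -0.46), with limma's adjusted p = 0.00985. The call held in 15 of 15 alternatives, over which adjusted p ranged from 2.14e-06 to 0.0486. By p, Cd226 ranked 52 among 12731 tested genes, and by size of the decrease it ranked 237. It rested on 1338 to 1594 reads in cKO and 2104 to 2428 reads in floxed libraries, which gives a counting error of 2.58% and 2.11%, below the spread between libraries of 6.77% and 4.65%. In bulk RNA, fewer cells with Cd226 and less Cd226 RNA per cell cannot be told apart.

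Tigit moved the other way without passing the test. It encodes an inhibitory receptor that competes with DNAM-1 for PVR and lies on chromosome 16 at 43648861 to 43664184, minus strand, with 4 merged exons and 963 exon bases. Tigit was at 27.1, 23.6 and 26.8 RPKM in the cKO libraries, against 13.9, 18.5 and 16.8 RPKM in the floxed libraries. The groups did not overlap, and 5.06 RPKM separated the lowest cKO from the highest floxed library. Means were 25.8 ± 1.96 RPKM in cKO and 16.4 ± 2.32 RPKM in floxed libraries (SD, n = 3 each), a ratio of 1.57. The log2 difference was 0.63 (SE 0.11, with a 95% confidence interval of 0.37 to 0.89), a size near that of Cd226 with the opposite sign, and limma's adjusted p = 0.0572 missed the threshold of 0.05. Tigit ranked 188 by p among all tested genes. It passed in 3 of 15 alternatives: voom on recovered reads (adjusted p = 0.00463), scaling of libraries to a common median (0.0413) and a filter at 5 RPKM (0.0360), within a range of 0.00463 to 0.190. Its short exons collected 479 to 586 reads in cKO and 291 to 359 reads in floxed libraries. Counting error was 4.28% in cKO and 5.48% in floxed libraries, and the spread between libraries 7.60% and 14.1%.

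Cd96 did not pass. It encodes a PVR receptor with several immunoglobulin domains and lies 2.37 Mb from Tigit on the same strand, at 46035657 to 46120251 of chromosome 16, with 15 merged exons and 2184 exon bases. Its level was 31.1, 28.0 and 28.0 RPKM in the cKO libraries, against 33.1, 30.2 and 29.5 RPKM in the floxed libraries. The highest cKO library lay above 2 of the 3 floxed libraries, so the groups overlapped. The log2 difference was -0.09 (SE 0.07, with a 95% confidence interval of -0.25 to 0.08; limma's adjusted p = 0.640), and adjusted p was 0.519 to 0.863 over 15 alternatives. Log2 differences from -0.25 to 0.08 were thus within the interval.

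The start regions of Tigit and Cd96 are shown because these neighbouring receptor genes differed in how they stood between the groups and because RORα is known to bind the core sequence AGGTCA. RefSeq windows (GRCm38.p6, the assembly of mm10) from 250 bases before to 50 after the start are shown for 2 of the 5 genes. They are read 5′ to 3′ on the minus strand, chr16:43664135-43664434 for Tigit and chr16:46120199-46120498 for Cd96. Capitals mark matches to any of 4 motifs searched on both strands. The motifs were the RORα core AGGTCA, the AP-1 site TGANTCA, the T-box site TCACACC and the RUNX site TGTGGT.
Tigit: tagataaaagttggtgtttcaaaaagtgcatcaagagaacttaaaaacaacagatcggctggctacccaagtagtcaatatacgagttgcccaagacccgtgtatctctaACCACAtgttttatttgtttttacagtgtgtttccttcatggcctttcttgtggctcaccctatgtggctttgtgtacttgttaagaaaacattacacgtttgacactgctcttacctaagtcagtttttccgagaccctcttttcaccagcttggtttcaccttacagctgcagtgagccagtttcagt
Cd96: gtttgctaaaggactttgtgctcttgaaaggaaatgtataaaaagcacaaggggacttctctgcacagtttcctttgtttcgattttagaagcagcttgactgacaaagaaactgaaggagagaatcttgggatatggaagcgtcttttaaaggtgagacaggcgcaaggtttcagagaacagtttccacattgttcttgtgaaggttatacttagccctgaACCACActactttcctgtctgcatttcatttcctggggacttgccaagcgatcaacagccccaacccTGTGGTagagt
The Tigit window held 1 match, a RUNX motif at position -140 from the start site, and the Cd96 window held 2, both RUNX motifs, at -28 and 39. These matches did not overlap each other. Among all 32851 RefSeq windows of this length, 16.8% held the RUNX motif, 16.3% AGGTCA, 7.81% the AP-1 motif and 3.98% the T-box motif. The letters of the other 3 motifs were not in either window, and a match is a string of letters and not a measured binding site. The start region of Cd226, the axis gene that passed in limma, was left out of this search by choice. The absence of AGGTCA from the windows shown therefore does not extend to Cd226.

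Crtam, the gene of an activating receptor for CADM1, did not pass either. It lies on chromosome 9 at 40969691 to 41004628, minus strand, with 10 merged exons and 5131 exon bases. Crtam was at 15.8, 14.6 and 13.7 RPKM in the cKO libraries, against 12.3, 11.8 and 11.0 RPKM in the floxed libraries. All 3 cKO values lay above all 3 floxed values, with 1.47 RPKM between the groups. Means were 14.7 ± 1.03 RPKM in cKO and 11.7 ± 0.624 RPKM in floxed libraries (SD, n = 3 each), a ratio of 1.26. The log2 difference was 0.30 (SE 0.07, with a 95% confidence interval of 0.13 to 0.48), with limma's adjusted p = 0.142. It passed in 1 of 15 alternatives, voom on recovered reads (adjusted p = 0.0181, within a range of 0.0181 to 0.327).

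Pvr, the ligand shared by DNAM-1, TIGIT and CD96, was low among the tested genes. The gene lies on chromosome 7 at 19903578 to 19921160, minus strand, with 8 merged exons and 6122 exon bases. It was at 1.42, 2.02 and 1.83 RPKM in the cKO libraries, against 1.76, 2.02 and 2.39 RPKM in the floxed libraries, on 195 to 316 reads per library. The groups overlapped, and 14.8% of tested genes had a lower mean level. The log2 difference was -0.15 (SE 0.14, with a 95% confidence interval of -0.49 to 0.19; limma's adjusted p = 0.709), with adjusted p from 0.598 to 0.915 over 14 alternatives. None of the 5 genes shared exon bases with another gene of the table.

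**Figure D2:**
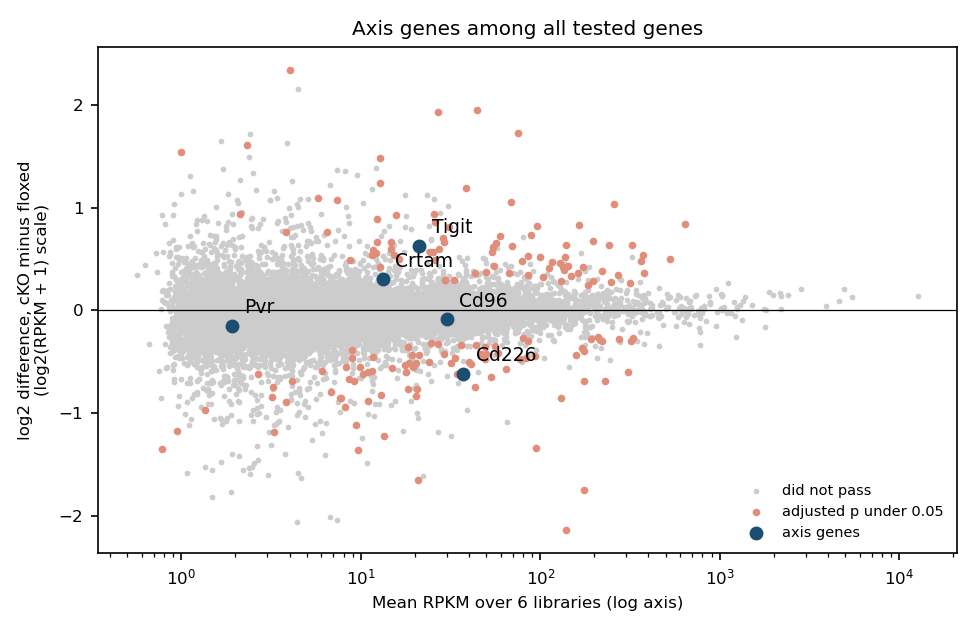
Log2 difference (cKO minus floxed, computed on log2(RPKM + 1)) against mean RPKM over the 6 libraries (log axis) for all tested genes, grey where limma did not pass and orange where the adjusted p was under 0.05, with the 5 axis genes in blue. Cd226 lies at -0.62 and Tigit at 0.63, Crtam at 0.30, and Cd96 and Pvr lie at -0.09 and -0.15.

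The balance between DNAM-1 and its inhibitory counterparts was read as a ratio of RPKM within each library, a quantity that library scaling does not alter. For Cd226 over Tigit the ratio was 1.10, 1.14 and 1.14 in the cKO libraries, against 3.14, 2.39 and 2.83 in the floxed libraries. Floxed libraries thus held 2.39 or more units of Cd226 per unit of Tigit, and no cKO library held more than 1.14. The mean was 1.13 ± 0.0259 in cKO and 2.79 ± 0.375 in floxed libraries (SD, n = 3 each), and the log2 ratio differed by -1.30, which makes the cKO ratio 0.407 of the floxed ratio. The two-sided exact permutation p was 0.1, the lowest that 20 assignments of 3 against 3 can give, and p = 0.1 after adjustment over 3 ratios.

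Against Cd96, the Cd226 ratio was 0.957, 0.960 and 1.09 in the cKO libraries and 1.32, 1.47 and 1.62 in the floxed libraries, again without overlap. The log2 ratio differed by -0.55 (exact permutation p = 0.1, adjusted p = 0.1). With the levels of Tigit and Cd96 summed, Cd226 stood at 0.511, 0.521 and 0.560 of that sum in the cKO libraries and at 0.930, 0.910 and 1.03 in the floxed libraries, a value given without a test. Crtam over Cd226, the ratio of the 2 activating receptors, was 0.530, 0.542 and 0.448 in cKO and 0.281, 0.266 and 0.232 in floxed libraries, with a log2 difference of 0.96 (exact permutation p = 0.1, adjusted p = 0.1). All these ratios contain Cd226, so they are not separate from its decrease.

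**Figure D3:**
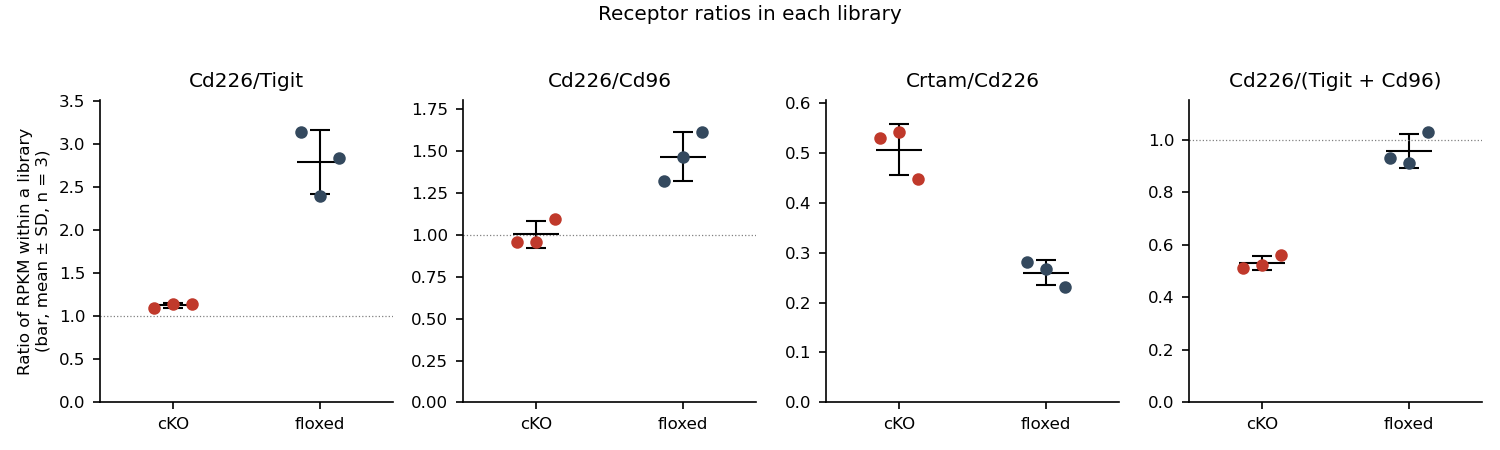
Ratio of RPKM within each library (points) for Cd226 over Tigit, Cd226 over Cd96, Crtam over Cd226 and Cd226 over the sum of Tigit and Cd96, with mean and SD (bar, n = 3), cKO left of floxed; the dotted line marks a ratio of 1 where it is on the axis. Cd226 over Tigit is at 1.10 to 1.14 in cKO and 2.39 to 3.14 in floxed libraries, and no ratio overlaps between the groups.

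Expressed as a share of the summed RPKM of the 4 receptors, Cd226 took 28.7, 28.9 and 30.9% in the cKO libraries and 42.5, 42.3 and 45.4% in the floxed libraries. Tigit took 26.1, 25.3 and 27.0% in cKO and 13.5, 17.7 and 16.0% in floxed libraries. Cd96 held 28.2 to 30.1% in cKO and 28.1 to 32.1% in floxed libraries, and Crtam 13.8 to 15.7% and 10.5 to 11.9%. The sum itself was 103.8, 93.0 and 99.2 RPKM in the cKO libraries, against 103, 104.8 and 104.9 RPKM in the floxed libraries, and the groups overlapped. Within the sum, then, the Cd226 share was smaller and the Tigit share larger in each cKO library than in any floxed library.

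The order of the levels was Cd226, Cd96, Tigit, Crtam and Pvr in both groups, and it differed in how clearly Cd226 led. In the cKO libraries Cd226 (mean 29.1 RPKM) and Cd96 (mean 29.0 RPKM) overlapped, and Cd226 was the higher of both in 1 of 3 libraries. In the floxed libraries the lowest Cd226 value, 43.7 RPKM, lay above the highest Cd96 value, 33.1 RPKM. Every other neighbour in the order was apart in both groups, the closest in the cKO libraries being Cd96 (lowest 28.0 RPKM) above Tigit (highest 27.1 RPKM). In the floxed libraries Tigit (lowest 13.9 RPKM) and Crtam (highest 12.3 RPKM) were the closest.

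Ligands of the axis other than Pvr were close to the floor of detection in these cells. The list of ligands and adhesion partners held 11 genes, 10 of them in the table. The 4 nectin genes Nectin1 to Nectin4 and the 4 genes Cadm1 to Cadm4, which encode adhesion proteins bound by CRTAM, DNAM-1 and TIGIT or related to those, had 0 to 22 reads per library, with a highest value of 0.10 RPKM in cKO and 0.197 RPKM in floxed libraries. Afdn, the gene of the nectin-binding scaffold afadin, was at 6.70 ± 0.211 RPKM in cKO and 6.25 ± 0.244 RPKM in floxed libraries (SD, n = 3 each; limma's adjusted p = 0.650). Of the 2 tested genes, Pvr and Afdn, 0 rose and 0 fell in limma. The unadjusted p was under 0.05 in 0 of them, and 0 passed by voom. Among all tested genes, 1.32% passed in limma, 14.1% had an unadjusted p under 0.05 and 4.19% passed by voom.

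Among signalling partners of DNAM-1, 1 gene rose, the kinase gene Fyn. FYN phosphorylates the tail of DNAM-1 and also acts on the tail of TIGIT. Fyn was at 178.8, 178.9 and 186.4 RPKM in the cKO libraries, against 137.6, 142.5 and 143.3 RPKM in the floxed libraries, without overlap. The log2 difference was 0.36 (SE 0.04, limma's adjusted p = 0.0106). The call was lost without cKO replicate 1 (adjusted p = 0.0543), cKO replicate 2 (0.0612), cKO replicate 3 (0.0542) or floxed replicate 3 (0.0538), without a mean-variance trend (0.0794) and with the replicate number as a block (0.0567), within a range of 2.11e-07 to 0.0794 over 15 alternatives. Of the 12 listed partners 11 were tested; Fyn rose, 0 fell and the other 10 did not pass, with an unadjusted p under 0.05 for 3 higher and 1 lower gene and 1 higher and 0 lower passing by voom. Their median log2 difference was 0.01, beside -0.03 for all tested genes. Shares over all tested genes were 1.32% in limma, 14.1% by unadjusted p and 4.19% by voom. The LFA-1 chains Itgb2 (227 ± 0.986 RPKM in cKO and 238 ± 3.34 RPKM in floxed libraries, adjusted p = 0.397) and Itgal (148 ± 2.42 and 162 ± 8.51 RPKM, adjusted p = 0.320) did not pass, nor did the phospholipase gene Plcg2 (71.7 ± 6.38 and 76.3 ± 2.26 RPKM, adjusted p = 0.633).

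The partners of the inhibitory receptors and of CRTAM gave no call. Of 7 tested genes 0 rose and 0 fell in limma, the unadjusted p was under 0.05 for 1 higher and 0 lower gene, and 0 passed by voom. Their median log2 difference was -0.01, beside -0.03 for all tested genes, of which 1.32% passed in limma, 14.1% by unadjusted p and 4.19% by voom. The kinase gene Lck was at 161 ± 2.17 RPKM in cKO and 149.8 ± 3.10 RPKM in floxed libraries (limma's adjusted p = 0.273), the SHP-1 phosphatase gene Ptpn6 at 146 ± 5.23 and 153 ± 4.10 RPKM (adjusted p = 0.544), and the kinase gene Csk at 100.5 ± 5.28 and 94.9 ± 0.759 RPKM (adjusted p = 0.528; SD, n = 3 each).

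Activating and inhibitory receptors outside the axis were set beside it to show how the decrease of Cd226 compared. Of 13 other activating receptor genes 0 rose, 1 fell and the other 12 did not pass in limma (unadjusted p under 0.05 for 2 higher and 4 lower; 1 and 1 by voom), with a median log2 difference of -0.08. Among all tested genes 1.32% passed in limma, 14.1% had an unadjusted p under 0.05 and 4.19% passed by voom. The gene that fell was Ncr1, at 245.2, 233.4 and 258.3 RPKM in the cKO libraries, against 374.4, 381.4 and 360.2 RPKM in the floxed libraries (log2 difference -0.60, limma's adjusted p = 0.00446). Whether the Ncr1 locus carries an insertion in the cKO mice is not stated in the sources used here. Cd2, Klrk1 (NKG2D) and Cd27 did not pass, at 294 ± 2.79, 153 ± 3.78 and 104 ± 0.337 RPKM in cKO and 269.7 ± 14.7, 161 ± 5.12 and 109 ± 2.89 RPKM in floxed libraries.

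Of 9 tested genes listed as inhibitory receptors outside the axis, 0 rose and 2 fell in limma. The unadjusted p was under 0.05 for 0 higher and 4 lower genes, and voom passed 0 as higher and 4 as lower. The median log2 difference of the 9 was -0.40, beside -0.03 for all tested genes. The gene at that median averaged only 1.01 RPKM in cKO and 1.60 RPKM in floxed libraries, on 14 to 70 reads per library. Its 95% confidence interval was -1.10 to 0.30 (limma's adjusted p = 0.613). The shares of all tested genes were 1.32% by limma, 14.1% by unadjusted p and 4.19% by voom. Lilrb4a, the gene of the inhibitory receptor gp49B, was at 39.5, 41.8 and 42.5 RPKM in the cKO libraries, against 64.9, 69.5 and 61.1 RPKM in the floxed libraries (log2 difference -0.65, limma's adjusted p = 0.00606); reads can be shared with its close paralog. Klrc1, which encodes NKG2A, was at 153.1, 158.2 and 139.9 RPKM in the cKO libraries, against 198.5, 203.5 and 193.9 RPKM in the floxed libraries (log2 difference -0.40, adjusted p = 0.0239). The Klrc1 call was lost without any 1 of the 6 libraries, with adjusted p between 0.0575 without cKO replicate 3 and 0.0940 without cKO replicate 1. It was also lost without a filter (0.0670), without a mean-variance trend (0.101) and with the replicate block (0.0567), so it passed in 6 of 15 alternatives. Cd160, Cd200r1 and Lag3 did not pass, with log2 differences of -0.26, -0.64 and -0.14 (limma's adjusted p = 0.137, 0.0566 and 0.807). Tigit, with a log2 difference of 0.63, thus had the opposite sign to the 2 inhibitory receptor genes that fell; that difference between genes was not tested.

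**Figure D4:**
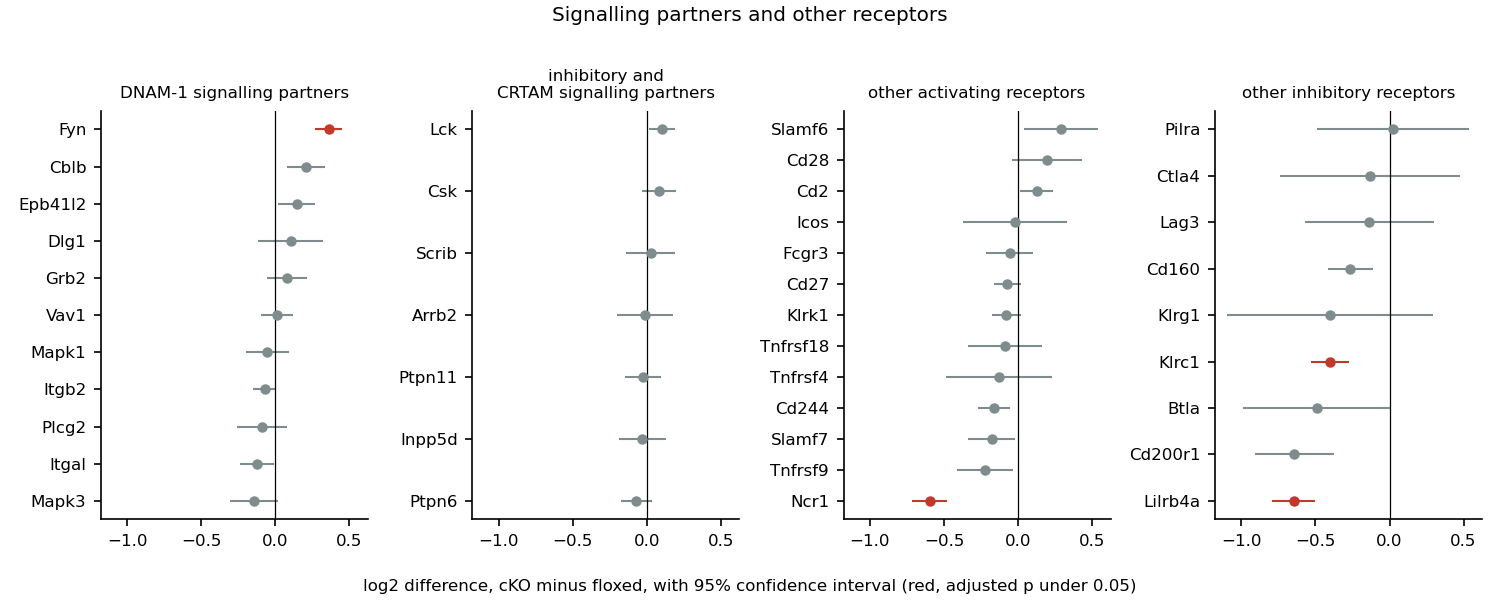
Log2 difference (cKO minus floxed, computed on log2(RPKM + 1)) with its 95% confidence interval for the tested genes of 4 lists, red where limma's adjusted p was under 0.05. Fyn at 0.36 is the red point among the DNAM-1 partners, Ncr1 at -0.60 among the other activating receptors, and Klrc1 at -0.40 and Lilrb4a at -0.65 among the other inhibitory receptors.

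T cells, regulatory T cells and conventional NK cells also carry receptors of this axis, and their markers were read in the same libraries. Of 9 tested T cell markers 0 rose and 1, Cd3e, fell (unadjusted p under 0.05 for 1 higher and 3 lower; 0 and 2 by voom), and the summed level of the 13 listed genes was 399.2 to 417.8 RPKM in cKO and 398.6 to 409.8 RPKM in floxed libraries. Cd3e averaged 2.93 RPKM in cKO and 5.35 RPKM in floxed libraries. Its call held in 6 of 14 alternatives and in 0 of the 6 fits that left out 1 library. The most abundant T cell markers did not pass: Trbc1 averaged 252 RPKM in cKO and 231 RPKM in floxed libraries, Trbc2 76.9 and 83.9 RPKM and Cd4 27.6 and 27.7 RPKM. Of 4 tested regulatory T cell markers 0 rose and 1, Il2ra, fell (unadjusted p under 0.05 for 0 higher and 2 lower; 0 and 2 by voom), and the 5 genes summed to 15.6 to 16.3 RPKM in cKO and 23.8 to 26.0 RPKM in floxed libraries. Their defining gene Foxp3 averaged 1.51 RPKM in cKO and 1.29 RPKM in floxed libraries. Of 16 conventional NK markers 6 rose and 1 fell (unadjusted p under 0.05 for 8 higher and 1 lower, and 7 and 1 by voom). Their summed level was 632.8 to 654.2 RPKM in cKO and 477.3 to 484.2 RPKM in floxed libraries. Of 12 ILC1 markers 1 rose and 3 fell (unadjusted p under 0.05 for 1 higher and 8 lower, and 1 and 6 by voom). The ILC1 markers summed to 750.2 to 818.5 RPKM in cKO and 824 to 902.6 RPKM in floxed libraries. For comparison, 1.32% of all tested genes passed in limma, 14.1% had an unadjusted p under 0.05 and 4.19% passed by voom. None of the markers in these lists was at 0 in all libraries, and their part in the levels of Cd226 and Tigit was not tested.

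Genes whose levels followed an axis gene most closely were found by Pearson's correlation of log2(RPKM + 1) over the 6 libraries among 6212 tested genes with a mean of at least 5 RPKM, with predicted genes, clone names, small RNA genes and mitochondrially encoded genes left out. For Cd226 these were Nfya (r = 0.997), Zfp382 (0.993) and Nars (0.992), and 94 genes reached 0.95. For Tigit they were Chsy1 (0.997), Tob1 (0.995) and Nr4a1 (0.991), with 58 genes at 0.95 or above. For Crtam they were Snx17 (0.984), Gpx4 (0.983) and Rnaseh2a (0.982), with 37 genes. For Cd96 and Pvr, whose groups overlapped, 11 and 5 genes reached 0.95, led by Phf1 (0.985) and Vars (0.982). The libraries share the group difference, so for Cd226, Tigit and Crtam, whose groups were apart, r includes that difference; it is given as a description. The genes named for Cd226 had log2 differences of -0.24, -0.32 and -0.11, none of which passed (limma's adjusted p = 0.195, 0.137 and 0.256).

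**Figure D5:**
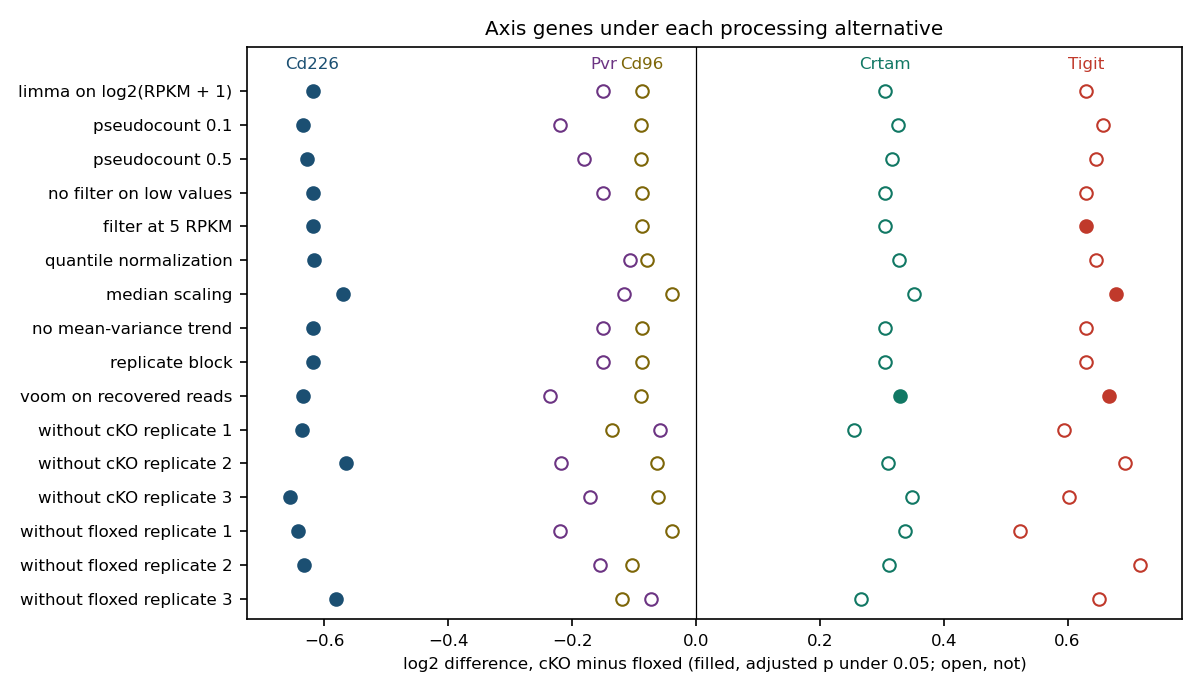
Log2 difference (cKO minus floxed) of each axis gene under the limma test and each alternative, one row each; filled points passed at an adjusted p under 0.05 and open points did not. Cd226 is filled in every row between -0.66 and -0.57, Tigit lies between 0.52 and 0.72 and is filled in 3 rows, Crtam between 0.26 and 0.35 with 1 filled, and Cd96 and Pvr are open in every row and below 0.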

How the data were processed

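The authors' deposited table holds RPKM for 24628 genes in 6 libraries, with exon coordinates and gene length. Per the submitters' processing notes, the build was mm10 and the tools were edgeR 3.12.1, Subread 1.5.1, featureCounts and STAR 2.5.3a. What each tool did, the annotation version, the strand setting and duplicate handling are not given in the sources used. Libraries were made from total RNA with a stranded mRNA kit, per the labels' protocols. RPKM times length fell on whole multiples of a step for 100% of values within 0.001 reads, which gave the reads and depth.

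The test was limma 3.58.1 (R 4.3.3), fitted to log2(RPKM + 1), which understates changes of low genes, with a trended eBayes variance. A gene entered when 3 or more of the 6 libraries reached 1 RPKM (12731 genes), without covariates, two-sided, at a Benjamini-Hochberg adjusted p under 0.05. Intervals are 95%, and counting errors cover counting only. Pairs of libraries differed by 6.79 to 15.8 (within groups) and 19.9 to 28.6 (between groups) in chi-square per gene at 500 or more summed reads. Each library was treated as 1 replicate, though these values do not show that libraries came from separate animals.

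Members and lists were chosen with earlier results of these data known. From a list, passing genes and up to 3 others by level could be named; of the marker lists few are. Start windows of the axis genes were taken by symbol, with chromosome 18, where Cd226 lies, left out. Cd226 was thus not searched, and windows of Tigit and Cd96 are shown (2 of 5). Alternatives were the pseudocount, filter, scaling, variance trend, replicate block, voom and each library left out.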

Additional observations from a re-analysis of the deposited data

How the results depend on the processing

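Cd226 kept its direction and passed in 15 of 15 alternatives, Cd96 and Pvr kept theirs without passing, and the 4 receptor ratios kept theirs and moved by less than the larger of the SDs within the groups. Tigit passed with a filter at 5 RPKM (log2 difference 0.63), with median scaling (0.68) and with voom on recovered reads (0.67), and Crtam with voom (0.33); a filter at 5 RPKM left out Pvr. Leaving out 1 library gave -0.66 to -0.57 for Cd226, 0.52 to 0.72 for Tigit, -0.14 to -0.04 for Cd96, 0.26 to 0.35 for Crtam and -0.22 to -0.06 for Pvr, and -1.40 to -1.21 for the log2 ratio of Cd226 to Tigit.

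Counts over all genes were 83 higher and 85 lower, and became 129 and 70 with median scaling, 44 and 36 without a filter, 39 and 35 without a variance trend, 226 and 307 with voom, and 33 to 50 and 27 to 39 without 1 library. The higher share of calls was 49.4%, and 64.8% with median scaling. DNAM-1 signalling partners called were 1, and 0 without a variance trend or with the block, and 0 to 1 without 1 library. Activating receptors called were 1, and 2 with voom. Inhibitory receptors called were 2, then 1 without a filter, without a trend, with the block or without any 1 library, and 4 with voom. The causes were not tested.

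Replicate numbers were shared by the titles of both groups. Deviations of same-numbered libraries correlated at -0.03, 0.01 and 0.04, and not every library correlated best with the one of its own number. With groups of 3, these values cannot decide whether the numbers mark pairs. With the replicate as a block 37 genes rose and 23 fell, the log2 difference of Cd226 was -0.62 (adjusted p = 0.0394) and that of Tigit 0.63 (adjusted p = 0.164). The groups of 3 limit precision, and 291 to 586 reads carry each Tigit value.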
